A study of Homo sapiens with 4 samples.

Results

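Protein-coding genes whose symbols begin with SRSF, HNRNP, SF3A, SF3B, SNRP, U2AF or PRPF encode core parts of the spliceosome and the proteins that steer it, and 74 of the 20149 protein-coding genes annotated on hg19 carry such a symbol. The rule takes symbols alone and uses no measured value, although the class was picked for description with earlier results of these data known. ChIP-seq of H3K27ac, a histone mark found at active promoters and enhancers, was made in K562, a line from a human leukaemia with erythroid features, with 1 Abcam antibody for all libraries. There was 1 library of cells transduced with the shRNA TFAM-sh1 (hairpin 1), 1 with TFAM-sh2 (hairpin 2), both directed at the mitochondrial DNA packaging protein TFAM, and 1 with shNT, a control shRNA. The question put by the submitters was what hyperacetylated histones mean genome-wide for erythroid cells short of TFAM. TFAM RNA and protein were not measured in these libraries, so the knockdown itself is not checked here. With 1 peak list per condition no spread between replicates can be given and no p-value is printed.

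Pre-mRNA splicing is carried out by small nuclear ribonucleoproteins (snRNPs), each a small RNA held by a ring of Sm proteins and by proteins particular to that particle. U2AF reads the end of the intron, the U2 snRNP with its SF3a and SF3b complexes then takes up the branch point, and the tri-snRNP brings in the catalytic centre around PRPF8. SR proteins mostly promote the use of an exon and hnRNP proteins often oppose it, so the balance of both families shapes alternative splicing. In blood, SF3B1, SRSF2 and U2AF1 are known as genes recurrently mutated in myelodysplastic syndromes, clonal disorders of marrow cells.

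With hairpin 1, 23819 peaks covered 54.4 Mb, with hairpin 2, 27007 peaks covered 61.9 Mb, and in the control 23413 peaks covered 52.1 Mb. No source used here gives the read depth, so the length of a list cannot be told apart from its depth. Of 11 erythroid and leukaemia genes used to check the K562 label, 7 in hairpin 1, 6 in hairpin 2 and 7 in the control had covered sequence within 5 kb of the start site, with sums of 32565, 32459 and 34111 bp. HBE1, HBG1, HBG2 and GATA1 were at 0 in every list, and TAL1 was at 0 in hairpin 2 alone. Of 7 markers of other cell types, 3, 3 and 2 had covered sequence, with sums of 4970, 3149 and 3384 bp, and CD3E, MS4A1, ALB and GFAP were at 0 in every list. The part of these differences in the results below was not tested. In bulk chromatin, fewer marked cells and less mark per cell cannot be told apart.

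The start sites of 5 of the genes on which the differences turn are shown first, each as the 250 bases before the start site in the direction of transcription, from the GRCh37 reference. They are SRSF2 (chr17:74733414-74733663, minus strand), where the peak was shorter with both hairpins, and HNRNPC (chr14:21737602-21737851, minus strand), likewise shorter. SF3B6 (chr2:24299197-24299446, minus strand) and U2AF1L4 (chr19:36236320-36236569, minus strand) had longer cover with both hairpins. HNRNPA1 (chr12:54674260-54674509, plus strand) had a peak with hairpin 1 alone. Capitals mark matches, on either strand, to the ETS core CCGGAA, the CCAAT box CCAAT and the NRF1 core GCGCATGC.
SRSF2: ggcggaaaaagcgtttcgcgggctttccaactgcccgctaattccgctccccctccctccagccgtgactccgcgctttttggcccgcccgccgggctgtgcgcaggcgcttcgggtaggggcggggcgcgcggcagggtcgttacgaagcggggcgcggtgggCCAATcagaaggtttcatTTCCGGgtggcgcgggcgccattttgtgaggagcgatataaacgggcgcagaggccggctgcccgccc
HNRNPA1: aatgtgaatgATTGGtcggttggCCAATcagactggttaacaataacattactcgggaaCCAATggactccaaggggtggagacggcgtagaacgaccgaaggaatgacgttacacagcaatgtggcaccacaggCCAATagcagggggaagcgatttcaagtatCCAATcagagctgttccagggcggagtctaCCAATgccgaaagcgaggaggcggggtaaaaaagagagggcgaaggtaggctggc
HNRNPC: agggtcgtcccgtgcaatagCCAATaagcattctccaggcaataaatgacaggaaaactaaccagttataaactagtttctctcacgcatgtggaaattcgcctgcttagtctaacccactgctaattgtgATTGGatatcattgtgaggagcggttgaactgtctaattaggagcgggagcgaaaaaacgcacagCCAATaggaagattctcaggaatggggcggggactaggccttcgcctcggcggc
SF3B6: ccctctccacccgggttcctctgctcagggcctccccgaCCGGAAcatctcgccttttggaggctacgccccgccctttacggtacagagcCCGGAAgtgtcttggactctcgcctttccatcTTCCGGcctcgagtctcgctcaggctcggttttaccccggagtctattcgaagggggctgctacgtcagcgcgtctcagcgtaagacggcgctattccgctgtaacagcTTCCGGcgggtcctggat
U2AF1L4: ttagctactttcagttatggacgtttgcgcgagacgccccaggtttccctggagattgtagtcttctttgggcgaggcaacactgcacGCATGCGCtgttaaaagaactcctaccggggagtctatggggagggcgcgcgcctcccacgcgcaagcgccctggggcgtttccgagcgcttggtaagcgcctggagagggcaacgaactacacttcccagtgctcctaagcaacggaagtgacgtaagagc

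HNRNPA1 held 6 CCAAT matches, HNRNPC 3 and SRSF2 1. SF3B6 held 4 ETS matches and SRSF2 1, and U2AF1L4 held 1 NRF1 match alone. Over all 74 genes, the CCAAT box was found in these 250 bases at 39, or 52.7%, against 34.2% of all protein-coding genes and 35.3% of those with a promoter peak in every list. It was present at 19 of 25 hnRNP genes and 9 of 13 PRPF genes, but at 3 of 12 SR genes. The ETS core was found at 28, or 37.8%, against 19.3% of all genes and 29.8% of those with a peak in every list, and was present at 9 of 12 SNRP genes and 6 of 9 SF3 genes. The NRF1 core was found at 8, or 10.8%, against 3.80% of all genes. The other motifs searched on both strands were the SP1 site GGGCGG, found at 56.8% of the genes against 58.6% of all, the TATA box TATAAA (12.2% against 9.40%), the E-box CACGTG (10.8% against 7.86%) and the YY1 core GATGGCGG (2.70% against 1.21%). Among genes with a promoter peak in every list, the SP1 site was found at 59.7% of the splicing genes against 74.2% of all and the TATA box at 13.4% against 4.21%. There the NRF1 core was at 10.4% against 6.13%, the E-box at 11.9% against 9.62% and the YY1 core at 2.99% against 1.80%. None of these letter strings contains another, although matches can overlap in part. A match describes the sequence and is not a binding site.

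Almost every splicing gene carried H3K27ac at its promoter in all 3 libraries. A promoter peak, meaning a peak within 1 kb of the start site of the canonical transcript, was present at 68 of the 74 genes in hairpin 1 (91.9%, exact Clopper-Pearson 95% interval 83.2 to 97.0), 68 in hairpin 2 (91.9%) and 67 in the control (90.5%, 81.5 to 96.1). The background was 54.7% of all protein-coding genes in hairpin 1, 54.9% in hairpin 2 and 53.7% in the control. These intervals cover counting error only. The 67 genes with a peak in the control had one in every list, 1 gene had one in hairpin 1 alone, 1 in hairpin 2 alone and 5 in none. Over all protein-coding genes the shares were 50.3% in every list, 1.65% in hairpin 1 alone, 1.68% in hairpin 2 alone and 41.4% in none, so the counts of 1 in a single list are near the background.

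The genes without a peak in every list were mostly retrocopies and tissue-restricted relatives. HNRNPCL1 and HNRNPCL2 are intronless relatives of HNRNPC, and HNRNPA1L3 is a copy of HNRNPA1. None of them had covered sequence within 5 kb of the canonical start site in any list. When the starts of all transcripts tagged basic in the annotation were used, 69 of the 74 genes had a promoter peak in hairpin 2 and 4 had none in any list. Reads that fitted more than 1 place had not been kept, so an absence at a near-identical copy cannot be read as a lack of the mark. SRSF12, an SR protein that represses splicing, had its nearest peak at 35157 bp in hairpin 1, 34943 bp in hairpin 2 and 27677 bp in the control. SNRPN, an imprinted gene of the Prader-Willi region that encodes a tissue-restricted Sm protein, was far from any peak, at 471300 bp in hairpin 1, 471606 bp in hairpin 2 and 471253 bp in the control. It shares its start site with SNURF. HNRNPA1L2, a further copy of HNRNPA1, had 2 short peaks in hairpin 2, of 612 and 485 bp at score percentiles 19.8 and 30.3, against none within 8336 bp in hairpin 1 and within 8331 bp in the control.

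HNRNPA1, the abundant hnRNP that favours distal splice sites, was the remaining exception. In hairpin 1 a single peak of 7847 bp (chr12:54670600-54678446) spanned its start site and that of CBX5, the divergent gene 604 bp away, and the gene was called longer there by the rule of size given below. Hairpin 2 and the control had no peak there, with the nearest one 19061 bp and 16914 bp away. The hairpin 1 peak ranked low, at score percentile 23.9 of its list, where the percentile is the share of peaks in the same list with a score at or below it. The widest peak of any list spanned 8841 bp, and the widest peaks ranked low in each: peaks of 7 kb or more had a median percentile of 26.7 in hairpin 1, 32.8 in hairpin 2 and 26.6 in the control, whereas peaks of 3 to 5 kb had 72.9, 74.7 and 74.8. The absence of a peak at HNRNPA1 in a list therefore does not show that its promoter was unmarked there.

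**Figure D1:**
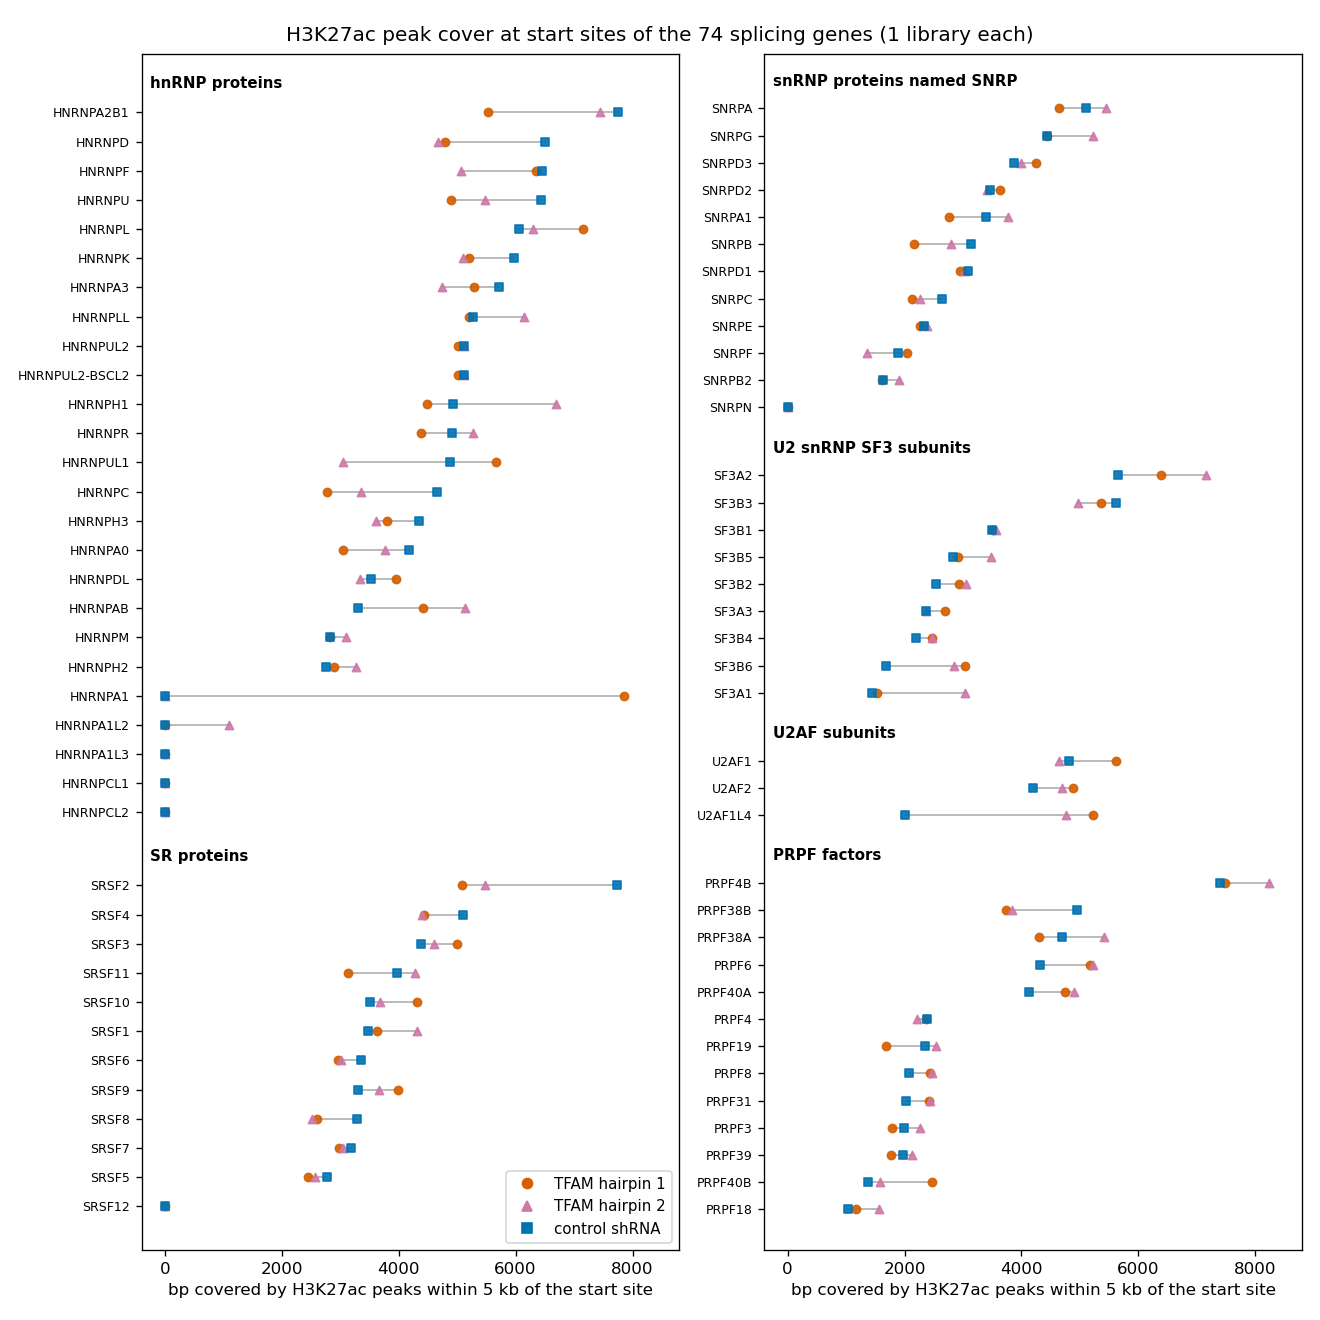
Base pairs covered by H3K27ac peaks within 5 kb of the start site of each of the 74 genes (x axis, bp), by family, with 1 point per library (circle, hairpin 1; triangle, hairpin 2; square, control) and a grey line over their range. Most lines are short beside the spread between genes, which runs from 0 to 8238 bp; HNRNPA1, U2AF1L4, SRSF2 and HNRNPUL1 have long ones.

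The promoters of splicing genes were long and high-ranking within each list. Within 5 kb of the start site the mean covered length was 3542 bp in hairpin 1, 3592 bp in hairpin 2 and 3504 bp in the control, against 1676, 1765 and 1594 bp over all protein-coding genes. Among genes with a promoter peak in every list the gap was smaller: the 67 splicing genes averaged 3795, 3951 and 3870 bp, and all such genes 2941, 3143 and 2836 bp. The highest-scoring promoter peak stood at a median score percentile of 86.3 in hairpin 1, 87.3 in hairpin 2 and 87.5 in the control, against 77.5, 79.9 and 76.7 over the promoter peaks of all genes. At or above percentile 90 were 35.3%, 41.2% and 38.8% of the splicing genes with a peak, against 22.9%, 25.7% and 22.8% of all genes with one. The SR proteins ranked highest, with median percentiles of 93.8, 96.4 and 96.3. SRSF6, an SR protein of alternative splicing, stood at 99.6 in hairpin 1, 99.6 in hairpin 2 and 97.3 in the control, and SRSF8 at 98.5, 99.9 and 96.3. Among the hnRNPs, HNRNPH3 stood at 99.7, 99.6 and 97.2 and HNRNPM, a regulator of alternative exons, at 98.0, 99.0 and 98.7.

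Among the genes with the most cover, PRPF4B, a kinase that acts on the pre-catalytic spliceosome, had 7485 bp in hairpin 1, 8238 bp in hairpin 2 and 7402 bp in the control, each as 1 peak and each at a middling or low percentile (46.5, 31.4 and 49.2). HNRNPA2B1, a reader of RNA export and splicing signals, had 5528 bp in hairpin 1 and 7442 bp in hairpin 2, against 7756 bp in the control. HNRNPL, which binds CA repeats, had 7161 and 6295 bp, against 6060 bp in the control. Of all 74 genes, 62 had exactly 1 peak within 5 kb in every list and 6 had more than 1 in some list. In the direction of transcription, the 65 genes with exactly 1 promoter peak in every list reached a median of 1829 bp past the start site in hairpin 1, 1972 bp in hairpin 2 and 1980 bp in the control, and a median of 1661, 1440 and 1545 bp before it. Another protein-coding gene began within 5 kb of 25 of the 74 start sites, and 16 had a divergent partner within 1 kb.

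The comparison with each hairpin asked whether cover at splicing genes differed when TFAM was targeted. Over the whole class the differences were small. The difference in covered length had a median of -21.5 bp for hairpin 1 minus control (quartiles -468 and 398, 68 genes with cover in either list) and of 175.5 bp for hairpin 2 minus control (quartiles -348 and 513, 68 genes). Over all genes with cover the medians were 94.0 bp (quartiles -299 and 532) and 223.0 bp (quartiles -146 and 679). Both comparisons use the same control library. With windows of 2.5 kb on each side the medians were 14.5 bp for hairpin 1 and 11.5 bp for hairpin 2.

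A difference was called where the lengths differed by at least 1.5-fold and 500 bp, a rule of size in place of a test. In hairpin 1 against the control, 4 of 68 genes were called longer, against 13.7% of all genes with cover, and 2 shorter, against 8.29%. The shorter calls, SRSF2 and HNRNPC, were lost with windows of 2.5 kb. In hairpin 2 against the control, 6 of 68 were longer, against 16.3%, and 1 shorter, against 6.16%. In hairpin 2 against hairpin 1, 3 of 69 were longer, against 13.7%, and 4 shorter, against 9.28%. Called splicing genes were thus fewer than the share among all genes with cover in each direction of each comparison. The hairpins differed from each other in about as many genes as from the control. The background includes many genes with short cover, which pass a fold more easily. Of all genes with a promoter peak in every list, 7.85% were called longer and 4.55% shorter in hairpin 1. The 67 splicing genes had 3 and 2 (4.48% and 2.99%). In hairpin 2 the shares were 10.8% and 2.31%, against 5 and 1 (7.46% and 1.49%). In hairpin 2 against hairpin 1 they were 8.83% and 4.08%, against 2 and 3 (2.99% and 4.48%). With 67 genes each gap amounts to few genes, and the last count is above its share. In all, 11 splicing genes were called in at least 1 hairpin, and 58 with cover in none.

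**Figure D2:**
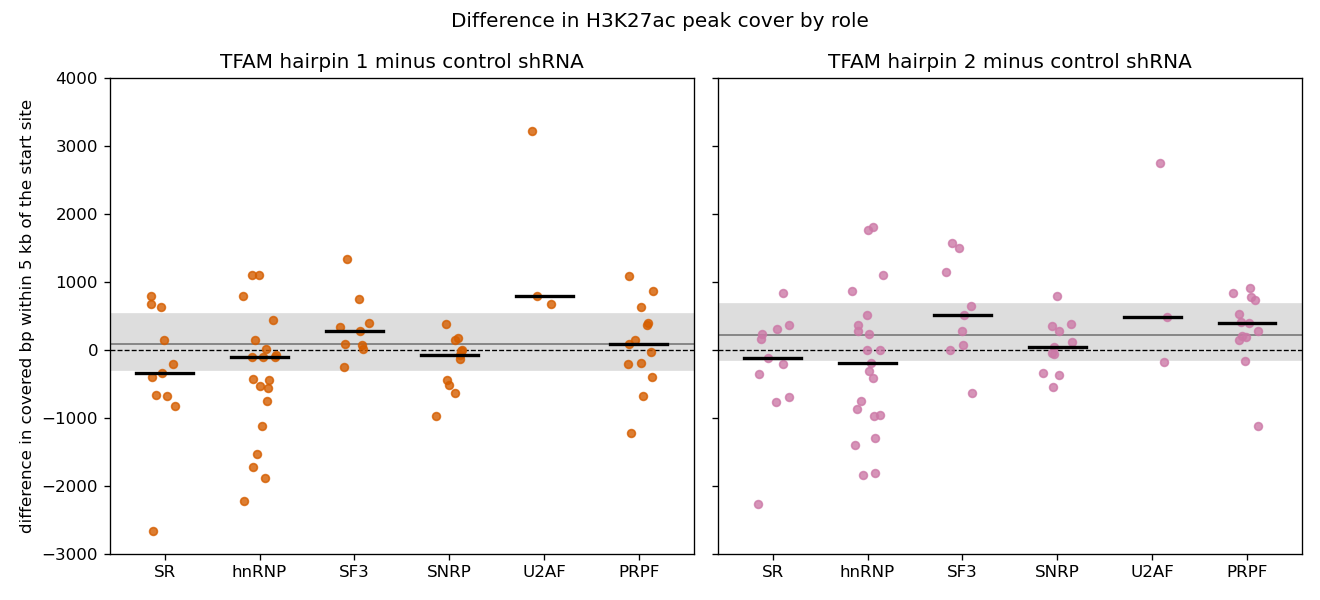
Difference in covered bp within 5 kb of the start site (y axis, bp), hairpin 1 minus control on the left and hairpin 2 minus control on the right, by family, with 1 point per gene that had cover in either list and a black bar at the family's median. The grey line and band are the median and quartiles of all protein-coding genes with cover; the SF3 median of 276 bp for hairpin 1 and 510 bp for hairpin 2 lies above the line, the hnRNP and SR medians lie below it, and HNRNPA1 in hairpin 1, at 7847 bp, is off the scale.

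The SF3a and SF3b subunits of the U2 snRNP were mostly a little longer. Called longer were 1 of 9 in hairpin 1 (11.1%) and 2 of 9 in hairpin 2 (22.2%), and none was called shorter. Among all genes with cover 13.7% and 16.3% were called longer, and 7.85% and 10.8% of those with a promoter peak in every list. In a family of this size the counts are near these shares. Of the 9 SF3 subunits, 8 had longer cover in hairpin 1 than in the control and 8 in hairpin 2 than in the control, with medians of 276 and 510 bp, above the medians of 94.0 and 223.0 bp over all genes, of which 57.1% and 65.9% were longer. The medians were 161.0 and 316.0 bp with windows of 2.5 kb and 400.0 and 1211 bp with windows of 10 kb. These counts include differences as small as 5 bp, at SF3A3 in hairpin 2. SF3B6, the subunit that touches the branch point adenosine, was called longer with both hairpins. Its peak measured 3033 bp in hairpin 1 (chr2:24298061-24301093) and 2839 bp in hairpin 2 (chr2:24298156-24300994), against 1689 bp in the control (chr2:24297931-24299619), or 1.80-fold and 1.68-fold. The added sequence lay before the start site, where the cover was 1897 and 1798 bp against 423 bp in the control. After the start site it was 1135 and 1040 bp against 1265 bp.

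SF3A1, a scaffold of the SF3a complex, had 1523 bp in hairpin 1 and 3030 bp in hairpin 2, against 1450 bp in the control. The hairpin 2 library alone stood apart, at 2.09-fold of the control, and 1 of its 2 peaks in the window lay 4616 bp and farther before the start site. SF3A2, another SF3a subunit, had 6393 and 7151 bp, against 5646 bp in the control, and did not reach the fold. SF3B1, the branch point clamp and the most often mutated splicing gene of myelodysplastic syndromes, was the steadiest of the SF3 genes with 3518 bp in hairpin 1 and 3569 bp in hairpin 2, against 3498 bp in the control. SF3B3, with 5359 and 4974 bp against 5614 bp in the control, was the exception to the direction. Divergent genes begin near some of these start sites: CCDC157 113 bp from SF3A1, PLEKHJ1 495 bp from SF3A2 and COG4 262 bp from SF3B3. Cover there cannot be assigned to either gene of a pair alone.

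Among the U2AF subunits, U2AF1L4, a relative of the small subunit, was called longer with both hairpins, at 5225 bp in hairpin 1 and 4759 bp in hairpin 2, against 2002 bp in the control. Most of the difference was a second peak, 3252 bp long and 2682 bp past the start site in hairpin 1, and 2881 bp long and 2861 bp past it in hairpin 2. Its window is shared with the start sites of IGFLR1, PSENEN and LIN37. The promoter peak itself spanned 2906 and 2619 bp, against 2002 bp in the control. U2AF1, the small subunit that reads the last bases of the intron, had 5622 bp in hairpin 1 and 4641 bp in hairpin 2, against 4822 bp in the control. U2AF2, the large subunit that binds the polypyrimidine tract, had 4882 and 4690 bp, against 4206 bp in the control.

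SR proteins had shorter cover with the hairpins in most cases, and 1 of 11 was called, shorter in hairpin 1 (9.09%). Among all genes with cover 8.29% were called shorter there, and 4.55% of those with a promoter peak in every list. The count is thus near the background. Of the 11 with cover, 4 were longer in hairpin 1 and 5 in hairpin 2, beside 57.1% and 65.9% of all genes with cover. The SR median differences were -333 and -124 bp. Among the 50% of peaks that scored highest, the hairpin 2 median turned to 167.0 bp, and without genes near a peak of 7 kb or more to 21.5 bp. With the gene's 5' end as the start site the medians were -204.0 bp in hairpin 1 and -20.0 bp in hairpin 2. SRSF2, an exon activator mutated in myelodysplastic syndromes, had 5075 bp in hairpin 1 (chr17:74730089-74735163) and 5472 bp in hairpin 2 (chr17:74729934-74735405), against 7740 bp in the control (chr17:74729720-74737459). The ratio to the control was 0.656 in hairpin 1, past the fold though not with windows of 2.5 kb, and 0.707 in hairpin 2, just short of it. The shorter cover lay upstream, where the divergent gene MFSD11 begins 788 bp away: 1750 and 1992 bp were covered there, against 4046 bp in the control. The score rank ran the other way, at percentile 91.6 in hairpin 1 and 82.7 in hairpin 2, against 33.5 in the control. SRSF1, the founding SR protein, had 3626 and 4315 bp, against 3476 bp in the control, and SRSF3, a small SR protein that links splicing to export, had 5004 and 4609 bp, against 4376 bp.

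**Figure D3:**
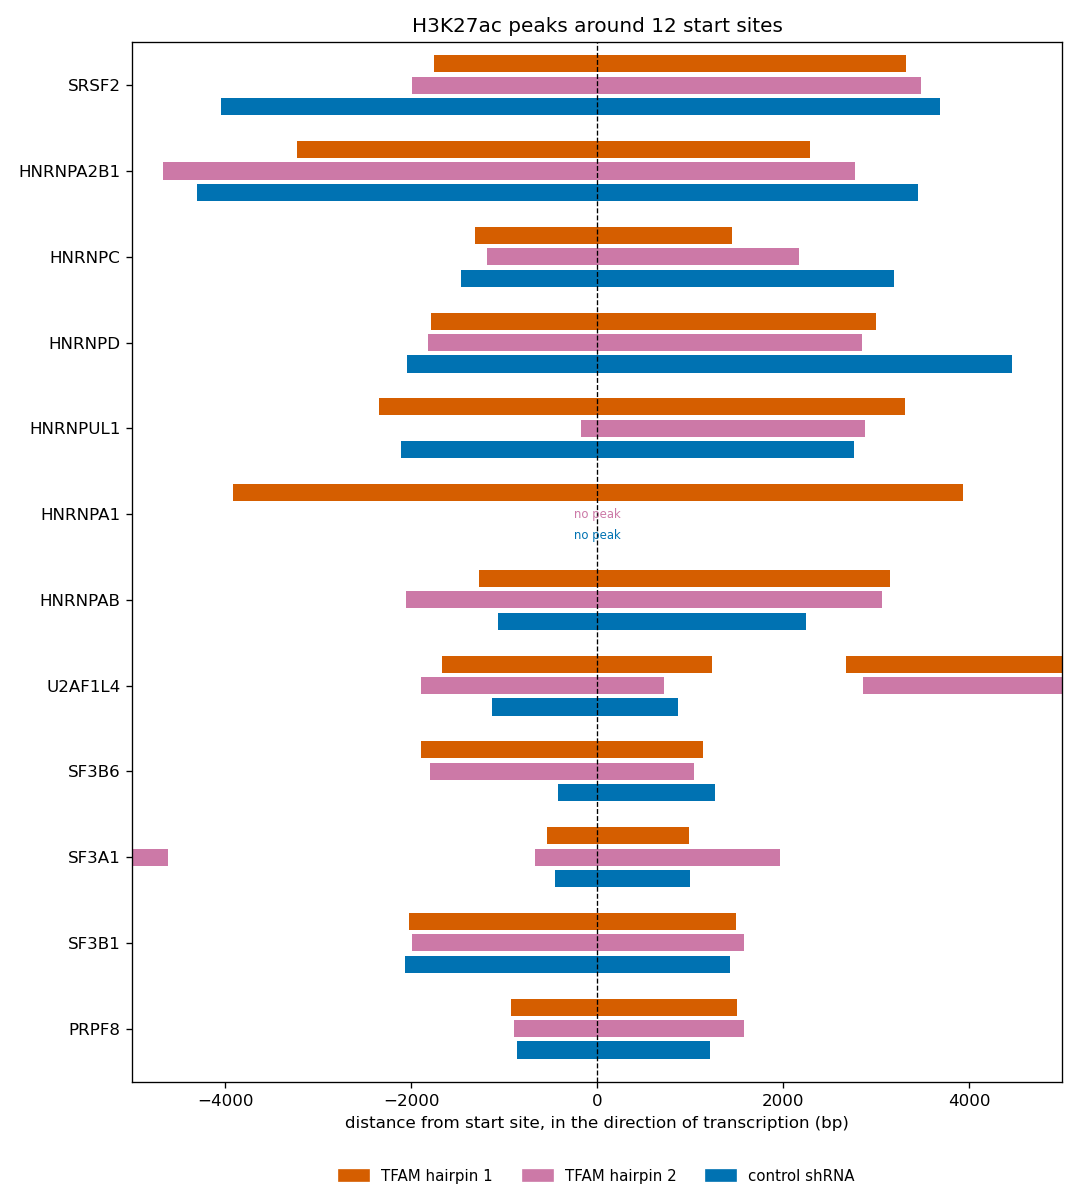
H3K27ac peaks within 5 kb of 12 start sites (x axis, distance from the start site in bp, direction of transcription to the right), with a bar per peak for hairpin 1, hairpin 2 and the control from top to bottom in each gene. The SRSF2 peak ends 4046 bp before the start site in the control but 1750 and 1992 bp before it in the hairpins, the SF3B6 peak is longer before the start site in both hairpins, and SF3B1 is nearly alike in all lists.

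hnRNP genes differed from the control in both directions. Called longer were 1 of 21 in hairpin 1 (HNRNPA1, 4.76%) and 2 in hairpin 2 (HNRNPAB and HNRNPA1L2, 9.52%). In each hairpin 1 was called shorter (4.76%). Among all genes with cover 13.7% and 16.3% were called longer and 8.29% and 6.16% shorter. Of those with a promoter peak in every list, 7.85% and 10.8% were longer and 4.55% and 2.31% shorter. In a family of this size the counts are near these shares. Of the 21 with cover in the list pair, 7 had longer cover in hairpin 1 and 8 in hairpin 2, beside 57.1% and 65.9% of all genes. The hnRNP median differences were -103 and -188 bp, the first of which turned to 9.0 bp with windows of 2.5 kb. The hairpin 2 median was -2.0 bp with windows of 10 kb and -95.0 bp among the 50% of peaks that scored highest. The hairpin 1 median was -437.5 bp over autosomal genes with no other splicing gene within 10 kb, -266.5 bp with windows of 10 kb and -430.0 bp without genes near a peak of 7 kb or more. HNRNPC, a nuclear hnRNP that binds uridine tracts, was called shorter in hairpin 1 with 2770 bp, a call lost with windows of 2.5 kb, and had 3358 bp in hairpin 2, against 4660 bp in the control. Here the shorter cover lay within the gene, with 1455 and 2173 bp after the start site, against 3194 bp in the control. HNRNPD, which binds AU-rich elements, had 4784 and 4667 bp, against 6505 bp in the control, and HNRNPU, a chromatin-associated scaffold protein, had 4902 and 5474 bp, against 6438 bp. HNRNPF, a binder of G-rich RNA, had 6355 and 5058 bp, against 6457 bp. None of these 3 reached the fold in either hairpin.

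HNRNPUL1, a relative of HNRNPU, was called shorter in hairpin 2, with 5663 bp in hairpin 1 and 3055 bp in hairpin 2, against 4874 bp in the control. Its hairpin 2 peak began 173 bp before the start site, whereas those of hairpin 1 and the control began 2347 and 2112 bp before it. HNRNPAB, an RNA-binding protein of the A/B type, was called longer in hairpin 2, with 4415 and 5126 bp, against 3310 bp in the control, which is 1.33-fold and 1.55-fold. HNRNPH1, which binds G-rich elements, had 4482 bp in hairpin 1 and 6691 bp in hairpin 2, against 4927 bp in the control, and was not called. HNRNPK, HNRNPA3 and HNRNPH3 were shorter in both hairpins by less than the fold, and HNRNPUL2, which shares its promoter with the readthrough gene HNRNPUL2-BSCL2, had 5019 and 5120 bp, against 5122 bp in the control.

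Promoters with 6000 bp or more covered in the control were mostly shorter with the hairpins over all genes too. Among all genes with a promoter peak in every list and 6000 bp or more covered in the control, the median difference was -859 bp in hairpin 1 and -200 bp in hairpin 2, and 28.3% and 38.3% were longer. For the 7 splicing genes in that class the medians were -1536 and -964 bp, and 2 were longer in each hairpin. At 4000 to 5999 bp the 23 splicing genes had medians of -255 and -2.0 bp, beside -238 and 41.0 bp over all genes. Of all genes in that class 37.5% were longer in hairpin 1 and 52.8% in hairpin 2. At 2000 to 3999 bp the 29 had 87.0 and 167.0 bp, beside 61.0 and 201.5 bp, and under 2000 bp the 8 had 108.5 and 277.5 bp, beside 192.5 and 295.0 bp. The classes are cut from the length in the 1 control library. A class long in that library would tend to be shorter in any other list, and a short one longer. The direction within a class is therefore a description and shows no effect of the hairpins.

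Length and score rank tended to move against each other. Among the 67 splicing genes with a promoter peak in every list, the covered length and the percentile of the promoter peak differed from the control in opposite directions at 48 in hairpin 1, or 71.6%, and at 45 in hairpin 2, or 67.2%. Over all genes the shares were 56.2% and 51.4%. Of the 35 splicing genes that were shorter in hairpin 1, 24 ranked higher there, and of the 28 shorter in hairpin 2, 23 did, beside 2851 of 4443 and 2566 of 3406 over all genes. Of the 32 longer in hairpin 1, 24 ranked lower there, and of the 39 longer in hairpin 2, 22 did, beside 2854 of 5684 and 2645 of 6730 over all genes. HNRNPA2B1 stood at percentile 89.5 in hairpin 1 and 60.3 in hairpin 2, against 41.3 in the control, HNRNPD at 81.1 and 88.0, against 56.6, and HNRNPU at 97.5 and 96.9, against 75.6. Those 3 were shorter and higher in rank, whereas U2AF1L4 was longer and lower in rank, at 29.9 and 56.0, against 75.7 in the control. Both are cases of length and rank in opposite directions. PRPF18, a second-step factor, and SF3B6 were among the genes that were longer and higher in rank with both hairpins. So were SF3A3, SF3B2, SF3B5, PRPF6, PRPF40B and HNRNPH2. Covered length and score rank are thus different measures, and a shorter peak is not in itself less acetylation.

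**Figure D4:**
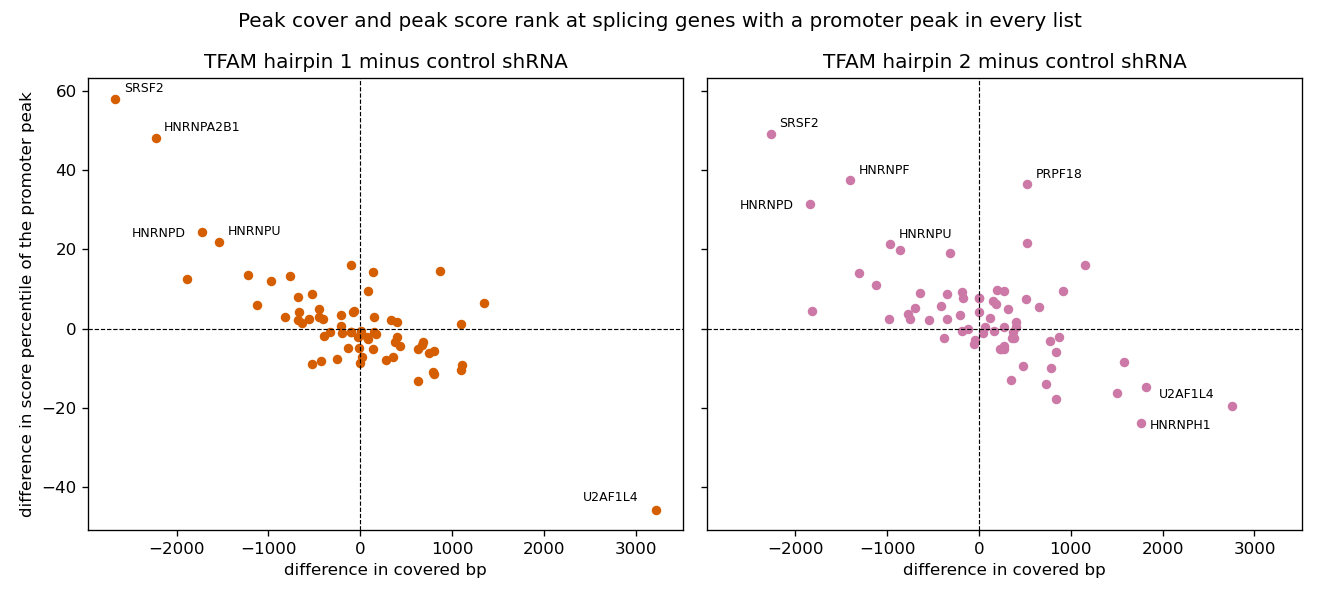
Difference in covered bp (x axis) against the difference in score percentile of the promoter peak within its own list (y axis, percentage points), hairpin minus control, for the 67 genes with a promoter peak in every list, with 1 point per gene. In both panels points run from upper left to lower right, from SRSF2 (7740 bp and percentile 33.5 in the control) to U2AF1L4 (2002 bp and percentile 75.7 in the control).

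Among the Sm and snRNP proteins named SNRP, none differed from the control past the rule of size. Of the 11 with cover, 0 were called in either hairpin, beside the 7.85% longer and 4.55% shorter in hairpin 1 and the 10.8% and 2.31% in hairpin 2 among all genes with a promoter peak in every list. In a family of this size those shares amount to about 1 gene, so the count is near the background, and the median differences were -79.0 and 46.0 bp, the second of which turned to -44 bp with windows of 2.5 kb. With windows of 10 kb the hairpin 1 median was -131.0 bp. SNRPE, SNRPD1 and SNRPD2, members of the Sm ring, had 2259, 2946 and 3639 bp in hairpin 1 and 2384, 3027 and 3419 bp in hairpin 2, against 2338, 3082 and 3463 bp in the control. SNRPB, the Sm protein whose paralogue is SNRPN, had 2164 and 2793 bp, against 3140 bp in the control, the lowest ratio of the family in hairpin 1 at 0.689. SNRPF had 2040 bp in hairpin 1 and 1352 bp in hairpin 2, against 1896 bp in the control, and was called shorter in hairpin 2 against hairpin 1. SNRPA, the stem-loop binding protein of the U1 snRNP, had 4648 and 5452 bp, against 5098 bp, and SNRPC, which steadies the U1 contact with the splice donor, had 2124 and 2271 bp, against 2647 bp.

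PRPF factors were longer in 7 of 13 cases in hairpin 1 (53.8%) and in 11 of 13 in hairpin 2 (84.6%), beside 57.1% and 65.9% of all genes with cover. Their medians were 83.0 and 400.0 bp, beside 94.0 and 223.0 bp over all genes. The hairpin 1 median was -26.0 bp among the 50% of peaks that scored highest, the same with the gene's 5' end as the start site, and 0 bp with windows of 2.5 kb, where the hairpin 2 median was also nearer to 0. PRPF8, the largest and most conserved spliceosomal protein, had 2438 bp in hairpin 1 and 2477 bp in hairpin 2, against 2077 bp in the control. PRPF6 and PRPF31, which tie the tri-snRNP together, had 5181 and 2426 bp in hairpin 1 and 5225 and 2437 bp in hairpin 2, against 4309 and 2029 bp in the control. The calls were PRPF40B, a splice donor factor, in hairpin 1 (2467 and 1575 bp, against 1375 bp in the control) and PRPF18 in hairpin 2 (1175 and 1555 bp, against 1028 bp). That is 1 of 13 called longer in each hairpin (7.69%), beside 13.7% and 16.3% of all genes with cover. Of those with a promoter peak in every list, 7.85% and 10.8% were called longer. The counts are thus near or below the background. PRPF18 had the shortest control cover of the 67 genes. PRPF38B, of the pre-catalytic complex, was the main gene in the other direction, with 3735 and 3841 bp, against 4958 bp. PRPF19, the ubiquitin ligase at the core of its own complex, had 1686 bp in hairpin 1 and 2542 bp in hairpin 2, against 2358 bp in the control, a difference between the hairpins that was called.

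The rest of the splicing machinery carried promoter peaks about as often as the 74 genes, with shorter cover. Of 119 other genes in 9 lists, 113 had a promoter peak in every list and 3 in none. Their mean covered length was 3053.5 bp in hairpin 1, 3137.1 bp in hairpin 2 and 3005.3 bp in the control. The 74 genes had 3542.1, 3591.8 and 3504.3 bp, and all genes with a promoter peak in every list 2940.9, 3142.7 and 2836.3 bp. With hairpin 1, 7 of 116 with cover were called longer and 3 shorter, and with hairpin 2, 4 of 114 longer and 2 shorter, again below the background shares. The medians were -23.5 and 165.0 bp. None of the 7 snRNP genes named SNRNP, the 9 of the exon junction complex, the 12 SR kinases and SR-related genes and the 6 of the minor spliceosome were called in either hairpin against the control. Among all genes with a promoter peak in every list, 7.85% were called longer and 4.55% shorter in hairpin 1, and 10.8% and 2.31% in hairpin 2. These lists, with no called gene, were below those shares. Lists of 6 to 12 genes are too small for a count of 0 in any 1 of them to be told apart from the shares. SNRNP70, the U1 core protein, had 3215 and 3274 bp, against 3125 bp in the control, and SNRNP40 had 2857 and 3065 bp, against 2523 bp. RNPS1, an exon junction factor, had 4465 and 3586 bp, against 3606 bp, and CLK3, a kinase of SR proteins, 2772 and 4476 bp, against 3077 bp. RNPC3 of the minor spliceosome had 1715 and 2818 bp, against 2554 bp.

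The called genes of these lists were few and mostly differed with 1 hairpin. Of the 11 genes of Sm ring assembly, CLNS1A, the chaperone that loads Sm proteins, was longer with both hairpins (4761 and 4642 bp, against 2991 bp in the control), and GEMIN7 of the SMN complex with hairpin 1 (5633 and 2560 bp, against 2144 bp). Of the 10 LSM genes, 2 were called shorter in hairpin 1 (20.0%, beside 8.29% of all genes with cover) and 1 longer in hairpin 2 (10.0%, beside 16.3%). LSM4, of the ring on the U6 RNA, had 0 bp in hairpin 1 and 3707 bp in hairpin 2, against 3762 bp in the control. LSM10, of the histone pre-mRNA particle, had 2101 and 3873 bp, against 3865 bp. LSM7, the longer call, had 2870 and 4616 bp, against 2844 bp. ELAVL1, a stabiliser of AU-rich mRNAs, was longer with both hairpins at 5641 and 5142 bp, against 2741 bp. KHSRP, another binder of AU-rich RNA, was shorter in hairpin 2, with 3900 and 2010 bp, against 3378 bp. SYF2 (6008 and 3323 bp, against 3125 bp) and RBM22 (2020 and 3682 bp, against 2354 bp), late spliceosome factors, and the helicase DHX35 (3032 and 2305 bp, against 3502 bp) were each called with 1 hairpin. MBNL1, a regulator of developmental splicing, had 4550 bp in hairpin 1 and 0 bp in hairpin 2 and in the control. As at HNRNPA1, a value of 0 bp at MBNL1, LSM4 or the marker TAL1 says only that a list holds no peak there, since it is not known whether domains too wide for the caller were dropped. With hairpin 1, CTNNBL1 and CELF2 were also called longer and PCBP2 shorter. ESRP1, ESRP2 and MBNL3 had no covered sequence in any list.

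The splicing genes were lower in G+C than other genes with a promoter peak. The G+C content within 500 bp of the start site had a median of 59.6% over the 74 genes, against 61.2% over all genes. Over genes with a promoter peak in every list it was 63.8%, a set that leaves out some of the 74. Across 5 groups of genes by G+C, the median difference over all genes with a promoter peak in every list was -60.0 bp in the group of lowest G+C and 216.5 bp in the highest for hairpin 1, and 77.0 and 309.0 bp for hairpin 2. From low to high G+C the 5 groups held 19, 19, 12, 15 and 2 of the 67 splicing genes with such a peak, and the second group ended at 61.8%. In the same order the splicing gene medians in hairpin 1 were 2.0, -26.0, 41.0, -102.0 and 135.5 bp. Over all genes of these groups they were -60.0, 15.0, 112.0, 116.0 and 216.5 bp. In hairpin 2 the splicing gene medians were 272.0, 117.0, 378.5, -2.0 and 89.5 bp, beside 77.0, 173.0, 254.0, 247.0 and 309.0 bp. The part of G+C content in the differences at splicing genes was not tested.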

How the data were processed

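Peak lists of 3 H3K27ac ChIP-seq libraries were used, grouped by sample title, and the input library was not analysed here. Per the labels' protocols, libraries were made with a NEBNext kit, sequenced on an Illumina NextSeq500, and reads aligned to exactly 1 place in hg19 were kept. Bowtie 0.12.7 and Picard are named without roles, per the submitters' processing notes. The peak names carry a MACS prefix; no source used here gives the caller's version, its threshold or how the input was used. Each list gives the start, end and score of a peak as the authors deposited it. Scores started at 50 and served here as ranks inside each list. All peaks lay inside the GRCh37 chromosomes.

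The gene annotation was GENCODE release 44, lifted to GRCh37, with 1 record per symbol and the start of the canonical transcript. Covered bp were summed within 5 kb of the start site, and a promoter was 1 kb on each side. The comparisons made no test, since each group had 1 library. The code was tested on simulated lists. The genes, lists and settings were chosen with earlier results of these data known. Named were the 6 largest rises and falls per hairpin, genes without a peak in some list, those with the most cover, 4 genes mutated in myelodysplastic syndromes, and up to 2 per further list; other names, and the 5 sequences, were chosen after their values were seen. Alternatives changed the peak threshold, list length, windows, start sites, overlap, peak joining, fold and the genes included. Tables were made in Python 3.11.15 with pandas 2.3.3 and numpy 2.4.6, intervals with SciPy 1.17.1 and plots with matplotlib 3.10.9.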

Additional observations from a re-analysis of the deposited data

How the results depend on the processing

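Over 13 alternative settings, 178 of 196 recomputed values stayed within 1.5 times the reported one with the same sign, or within 5 percentile points for score ranks. Many of these could not move. Using the starts of all basic transcripts, or a promoter overlap of at least 500 bp, changed the promoter peaks alone, so lengths and calls stayed the same by construction. Leaving out genes with no cover likewise fixed the median differences and calls. The share is therefore not a measure of stability. In the higher-scoring 50% of each list, 8 genes had a promoter peak in no list and 4 in some but not all, against 5 and 2. With promoters and windows of 2.5 kb the median difference turned to 14.5 bp for hairpin 1, was 11.5 bp for hairpin 2, and 0 genes were called shorter in hairpin 1. The hairpin 1 median was -5.0 bp with windows of 10 kb, where 1 gene was called shorter, -7.5 bp with the gene's 5' end as the start site and -32.5 bp with peaks within 1 kb merged. Leaving out genes with no cover leaves 0 without a peak in any list. At a fold of 2 and 1000 bp, 2 genes were longer and 0 shorter in hairpin 1, 3 and 0 in hairpin 2, and 1 and 1 in hairpin 2 against hairpin 1. Without the 7 genes near a peak of 7 kb or more, a setting chosen after seeing the data, 1 gene had a peak in some lists only and 1 was called shorter in hairpin 1. The stricter fold and the left-out genes lower these counts by construction; for the others, the turned median included, the cause was not tested. No paired analysis was possible because each group had 1 library. Unknown depth limits every absence.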
